A study of Mus musculus with 8 samples.

Results

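Amino acid transporters are the membrane proteins that carry amino acids into and out of cells, lysosomes and other compartments. Genes were taken by family name, from the solute carrier families Slc1a, Slc3a, Slc7a, Slc36a, Slc38a and Slc43a together with the taurine and glycine carriers Slc6a6 and Slc6a9. The rule took 47 of the 54134 genes in the table. Of these, 28 reached 1 TPM (the table's unit, a level per gene length) in at least 2 libraries and were tested among 14985 genes. They comprised 27 transporters and Slc7a6os, a transcript named for the strand opposite Slc7a6. The libraries came from wild-type mouse bone marrow stem cells that had been driven through 14 days of adipogenic differentiation in culture, all with the same commercial kit. Dexamethasone (DEX), a synthetic glucocorticoid, was then added to 2 of the 3 groups at 1e-06 M for 24 hours. The GC group (n = 3) had DEX alone, and the GC+GW9662 group (n = 3) also had GW9662, which inhibits PPARγ, the master regulator of fat cells. The dose of GW9662 is not given in these sources. Control (n = 2) had the differentiation, with neither agent labelled as added afterwards. The labels do not say whether the kit medium holds a glucocorticoid. Since nothing in the labels ties the libraries to separate cultures, p-values reflect only the spread between these samples, which may be technical.

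Cells take up essential amino acids largely by exchange. Slc3a2 (CD98) is a heavy chain that brings light chains of the Slc7a family to the cell surface, and each light chain sets which amino acids are exchanged. Sodium-coupled carriers such as Slc38a2 and Slc1a5 load the cell with the small neutral amino acids that the exchangers trade for leucine, while Slc7a11 trades glutamate for cystine, the source of cysteine for glutathione. Many of these genes are known targets of Atf4, the transcription factor of the amino acid and integrated stress responses. In fat, amino acid uptake feeds lipid synthesis and mTORC1 signalling, and in macrophages arginine and cystine carriers serve immune functions.

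Groups are named by their labels alone, and each direction given depends on them. The glucocorticoid-induced gene Fkbp5 stood at 446 TPM on average in the libraries labelled Control, 58.5 in those labelled GC and 95.4 in those labelled GC+GW9662, and Tsc22d3 at 557, 59.6 and 429 TPM, so both were highest where no glucocorticoid is labelled. Estimated depth was 17438306 to 26524972 reads per library, and the 25 members given in full below rested on 2 to 180524 reads in a library. Libraries of a group correlated at 0.947 to 0.994 across genes and those of different groups at 0.78 to 0.906. GC replicate 1 was lower than GC replicates 2 and 3 for many members, with medians that differed by gene length: over the 12 shorter members with a GC mean of at least 1 TPM its level was 0.869 times their mean (median, range 0.439 to 1.07), and over the 13 longer members 0.605 times (0.433 to 1.22), so the ranges overlapped widely. Adipocyte markers summed to 1440 to 1459 TPM in the Control libraries, 321 to 339 in the GC libraries and 1338 to 1502 in the GC+GW9662 libraries. Of the 9 markers, 8, 5 and 8 reached 1 TPM in at least 1 library of the group, and Lep, the leptin gene, was listed at 0 in every library. Most of the GC sum was Cebpa, which averaged 254, 287 and 236 TPM in the 3 groups. The other 8 markers summed to 1195 to 1196, 36.7 to 52.6 and 1110 to 1256 TPM. This sum and those below without leading genes were added after their values were seen. The sum of these 8 markers hid opposite moves between GC+GW9662 and Control. Lpl (-2.73, limma adjusted p = 3.9e-04) and Plin1 (-0.67, 0.0071) were lower in GC+GW9662. Fabp4 (1.23, 0.0024), Adig (1.61, 0.0016), Pparg (1.13, 0.0033) and Adipoq (0.56, 0.042) were higher, and Cidec did not pass. All 10 macrophage markers reached 1 TPM in each group, with sums of 31397 to 32317, 9938 to 10432 and 24841 to 28886 TPM. Lyz2 (6136 TPM on average) and Cd68 (2651 TPM) led the GC sum, and Cd68 was higher in GC than in Control (1.43 ± 0.15, limma adjusted p = 1.2e-04). The other 8 summed to 19997 to 20398, 1368 to 1572 and 19687 to 20609 TPM. C1qa led this sum in Control (7942 TPM on average) and in GC+GW9662 (9986 TPM), followed by C1qb and C1qc. None of them passed between these groups. Adgre1 (-1.29, limma adjusted p = 0.0016) and Csf1r (-2.35, 0.0018) were lower in GC+GW9662 than in Control. So were Mrc1 (-3.32, 0.0013) and Mpeg1 (-2.51, 5.4e-04), while Cd14 did not pass. Bone marrow stroma markers summed to 1107 to 1157, 48.9 to 109.6 and 302 to 328 TPM, with 7, 6 and 6 of 7 at 1 TPM. Neutrophil markers summed to 20.9 to 26.6, 249 to 550.1 and 72.4 to 83.4 TPM, with 1, 2 and 2 of 6 at 1 TPM and Ltf listed at 0 throughout. That sum was nearly all S100a8 (22.8, 381 and 77.3 TPM on average), and the other 5 markers summed to 0.996 to 1.04, 0.368 to 1.65 and 1.29 to 2.94 TPM. The sums move between the groups together with many members described below, and their part in those results was not tested. In bulk samples, fewer cells of a type and less RNA per cell cannot be told apart.

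Promoter sequence was available from RefSeq (GRCm38.p6, a window around each start site) for 20 of the 28 members. The table was searched on both strands for TGATGNAA, the core of the amino acid response element that Atf4 binds with C/EBP partners, and for TGACNNNGC, the core of the antioxidant response element that Nrf2 binds. The first core was found in 3 of the 20 members, Slc7a11, Slc1a4 and Slc7a7, against 4.51% of all genes with a promoter in the table (3.97% of its 32851 promoters). The second was found in 5 of the 20, Slc7a1, Slc7a6, Slc38a2, Slc36a1 and Slc6a9, against 14% of all genes (12.4% of promoters). No match of 1 core overlapped a match of the other. The stretches from 150 bases before to 9 bases after the start site are shown for the members with the first core, and for Slc3a2, which had neither core in the window searched and had the highest level of all members. That Slc3a2 window (8713848 to 8714147) lies inside the M21 span of the gene, 8706882 to 8723369. The upstream end of that span, at 8723369, was not searched. All 4 genes lie on the minus strand. Capitals mark TGATGNAA or its reverse complement.
Slc7a11, chr3:50443604-50443763: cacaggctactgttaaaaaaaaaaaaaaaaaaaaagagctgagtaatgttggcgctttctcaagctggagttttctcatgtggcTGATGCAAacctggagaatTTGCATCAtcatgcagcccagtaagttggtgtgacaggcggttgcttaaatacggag
Slc1a4, chr11:20332704-20332863: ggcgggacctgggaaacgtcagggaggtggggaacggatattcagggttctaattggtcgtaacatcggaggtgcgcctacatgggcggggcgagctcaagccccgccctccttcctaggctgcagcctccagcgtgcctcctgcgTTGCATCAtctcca
Slc7a7, chr14:54417935-54418094: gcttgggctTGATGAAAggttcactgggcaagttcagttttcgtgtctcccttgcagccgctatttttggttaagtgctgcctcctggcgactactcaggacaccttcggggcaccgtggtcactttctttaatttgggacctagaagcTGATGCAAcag
Slc3a2, chr19:8713888-8714047: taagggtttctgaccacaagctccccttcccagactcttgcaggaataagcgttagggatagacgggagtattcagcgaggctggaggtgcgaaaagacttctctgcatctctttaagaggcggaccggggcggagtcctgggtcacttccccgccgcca
Slc7a11 held the core at 66 bases before the start site on its own strand and at 47 bases before it on the other strand. In Slc1a4 it began 4 bases before the start site, and in Slc7a7 141 bases and 1 base before the start site shown. Slc7a7 had further start sites in the table. The core lay 243 bases before another of them, and the rest had none in their windows. Among these genes, Slc7a11 and Slc3a2 were higher in the libraries labelled GC, Slc7a7 was lower and Slc1a4 did not pass the test there, as given below. A match is a description of letters and not a measured binding site.

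Counts over the members were read against those over all genes tested. In GC against Control, 8 of the 28 members were higher, where 16.2% of all genes were, and 14 were lower, where 39.1% were, at a limma adjusted p below 0.05. The median member differed by -0.58 on the log2(TPM + 1) scale, which understates changes of low genes, and the median gene by -0.38. Between GC+GW9662 and GC, 9 members were higher with the inhibitor (28.3% of all genes) and 10 lower (33.5%), with medians of -0.37 for members and -0.11 for all genes. These comparisons share the GC libraries, and their values stand side by side below. The counts hold Slc1a1 and Slc7a4, which passed the filter only through the group where each was highest and so had to differ. Without them 26 members remain, with 7 higher and 14 lower in GC against Control, 8 and 9 in GC+GW9662 against GC, and 0 and 20 in GC+GW9662 against Control. In GC+GW9662 against Control, 0 members were higher by limma (14.1% of all genes; 0 also at an unadjusted p below 0.05) and 20 were lower (48.6%), but this split was 5 higher and 14 lower with median-ratio scaling, 3 and 14 with quantile normalization, and 6 and 4 once the trend with exon length was removed. The higher counts under these settings hold Slc7a4 with median-ratio scaling, and Slc7a4 and Slc1a1 with the length trend removed. As deposited, the medians were -0.97 for members and -0.49 for all genes. Those 3 settings move the median of all genes from -0.49 to 0.007, -0.002 and 0.001 in this comparison and from -0.38 to 0.041, 0.058 and 0.017 in GC against Control. The split of all genes moved too. In GC+GW9662 against Control, 4387 of 14985 genes were higher and 4741 lower with median-ratio scaling. The counts were 4120 and 4479 of 14985 with quantile normalization, and 3540 and 3409 of 14974 with the length trend removed.

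**Figure D1:**
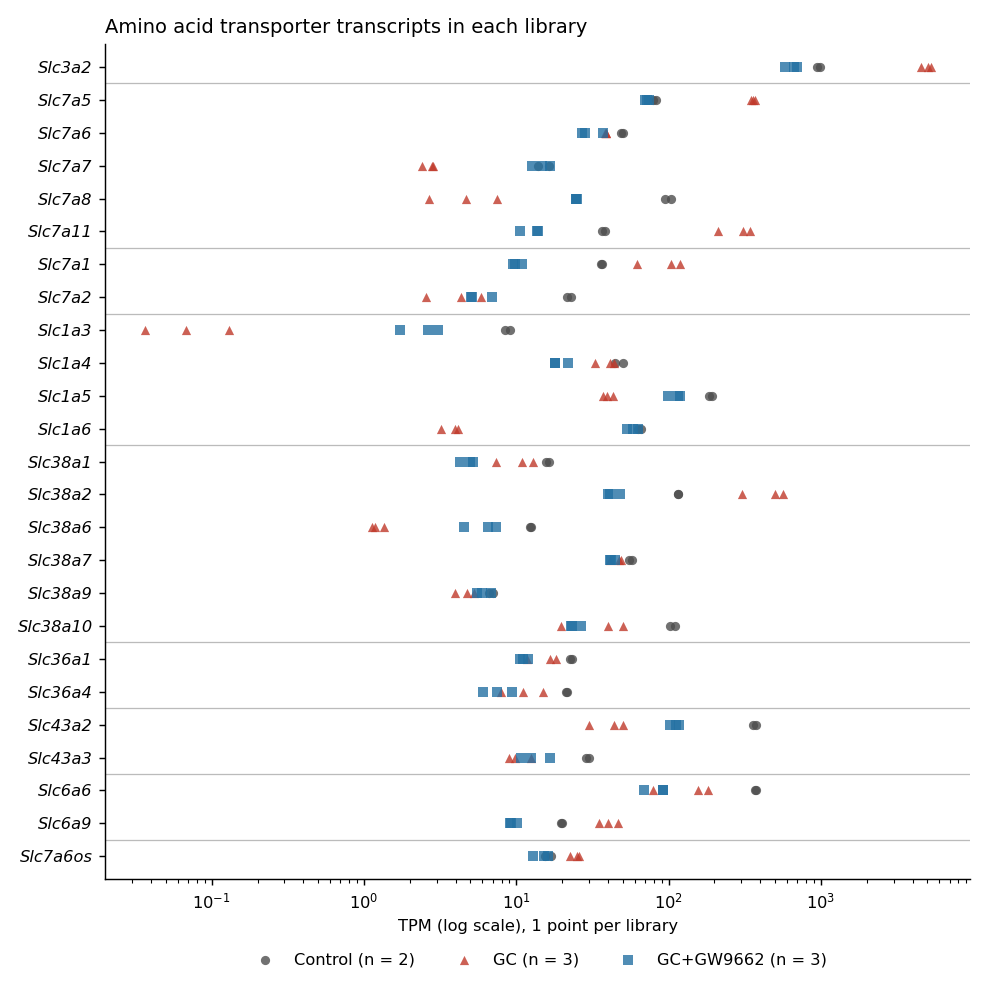
TPM on a log axis for the 25 members with a group mean of at least 5 TPM, 1 point per library (Control circles, GC triangles, GC+GW9662 squares), in blocks by role from the heavy chain at the top. The 3 GC libraries of Slc3a2 lie between 4547 and 5299 TPM, above the other 5, while those of Slc1a3 lie below 0.14 TPM.

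The heavy chain had the highest level of all members in every library and was higher in the libraries labelled GC. Slc3a2 (chromosome 19, 8706882 to 8723369 in GENCODE M21) measured 992 and 949.8 TPM in the libraries labelled Control, 4547, 5299 and 5063 in those labelled GC and 693, 578 and 665 in those labelled GC+GW9662. The groups did not overlap. Its difference was 2.35 ± 0.12 (log2 ± SE) for GC against Control (adjusted p = 2.2e-06), -2.94 ± 0.10 for GC+GW9662 against GC (5.2e-07) and -0.59 ± 0.12 for GC+GW9662 against Control (0.0036). The last value became 0.10 with median-ratio scaling and did not pass with the length trend removed. Slc3a2 made up 34.8% to 35.2% of the summed TPM of all transporters taken by the rule in the Control libraries, 72.8% to 77.8% in the GC libraries and 46.3% to 47.2% in the GC+GW9662 libraries. The other heavy chain of the family, Slc3a1, reached at most 0.436 TPM.

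Of the 5 kept light chains, Slc7a5 and Slc7a11 were higher in the libraries labelled GC, Slc7a7 and Slc7a8 were lower, and Slc7a6 did not pass the test. Slc7a11, the cystine and glutamate exchanger xCT (chromosome 3, 49892526 to 50443614), measured 38.3 and 36.6 TPM in the Control libraries, 209.8, 343 and 308 in the GC libraries and 13.6, 10.6 and 13.9 in the GC+GW9662 libraries. All 3 GC libraries were above and all 3 GC+GW9662 libraries below both Control libraries, with GC replicate 1 the lowest of its group. The differences were 2.87 ± 0.22 for GC against Control (adjusted p = 1.9e-05), -4.37 ± 0.19 for GC+GW9662 against GC (1.3e-06) and -1.50 ± 0.22 for GC+GW9662 against Control (0.0019), the last 0.18 and not called with the length trend removed. Slc7a5, the leucine exchanger LAT1, measured 78.8 and 83.2 TPM in the Control libraries, 350.2, 369 and 359 in the GC libraries and 72.1, 74.3 and 70.4 in the GC+GW9662 libraries. Its GC libraries stood above the rest, at 2.14 ± 0.09 against Control (adjusted p = 1.2e-06), and GC+GW9662 differed from GC by -2.30 ± 0.08 (5.4e-07). Its GC+GW9662 libraries all lay below the Control libraries by a small margin that did not pass (-0.16 ± 0.09, adjusted p = 0.16) and that was 0.52 and 0.43, and called, with median-ratio scaling and with the length trend removed.

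Slc7a8, the LAT2 exchanger with a preference for smaller neutral amino acids, had the most negative log2(TPM + 1) difference of all members in GC against Control. It measured 104 and 94.2 TPM in the libraries labelled Control, 2.67, 7.52 and 4.66 in those labelled GC and 24.5, 24.7 and 24.9 in those labelled GC+GW9662. The groups were fully apart, with GC lowest and GC+GW9662 between. The differences were -4.16 ± 0.31 for GC against Control (adjusted p = 1.6e-05), 2.19 ± 0.27 for GC+GW9662 against GC (2.8e-04) and -1.96 ± 0.31 for GC+GW9662 against Control (0.0022). The last call held under every alternative run. Slc7a7, which exports cationic amino acids in exchange for neutral ones and sodium and is known from macrophages, measured 13.8 and 16.5 TPM in the Control libraries, 2.42, 2.83 and 2.79 in the GC libraries and 16.7, 12.7 and 14.8 in the GC+GW9662 libraries. GC differed by -2.13 ± 0.19 from Control (adjusted p = 3.9e-05), and GC+GW9662 was 2.09 ± 0.17 above GC (2.5e-05). GC+GW9662 and Control overlapped as deposited (-0.04), but the difference was 0.60, 0.88 and 0.42, and called, with median-ratio scaling, quantile normalization and the length trend removed. Slc7a6, a related exchanger, measured 48.7 and 50.3 TPM in the Control libraries, 38.6, 38.4 and 38.9 in the GC libraries and 37.3, 26.9 and 28.1 in the GC+GW9662 libraries. It did not pass in GC against Control (-0.35 ± 0.16, adjusted p = 0.089) or in GC+GW9662 against GC (-0.33 ± 0.14, 0.067), and was lower in GC+GW9662 against Control (-0.68 ± 0.16, 0.0062), a call that all 3 settings named above ended.

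The makeup of the light chains is compared on the TPM scale, which is per length. The 5 light chains summed to 281 to 284 TPM in the Control libraries, 604 to 761 in the GC libraries and 149 to 164 in the GC+GW9662 libraries. Slc7a8 took 33.5% to 36.8% of that sum in the Control libraries, 0.443% to 0.988% in the GC libraries and 14.9% to 16.6% in the GC+GW9662 libraries. Slc7a11 took 13.04% to 13.5%, 34.8% to 45.1% and 7.12% to 9.12%, and Slc7a5 27.7% to 29.6%, 48.5% to 58.0% and 43.9% to 49.8%. The level of Slc3a2 was 3.38 to 3.49 times the light-chain sum in Control, 6.96 to 7.53 times it in GC and 3.88 to 4.37 times it with GW9662. These shares and ratios do not depend on how a library is scaled, but they do depend on any trend with gene length, and they are given without a test.

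**Figure D2:**
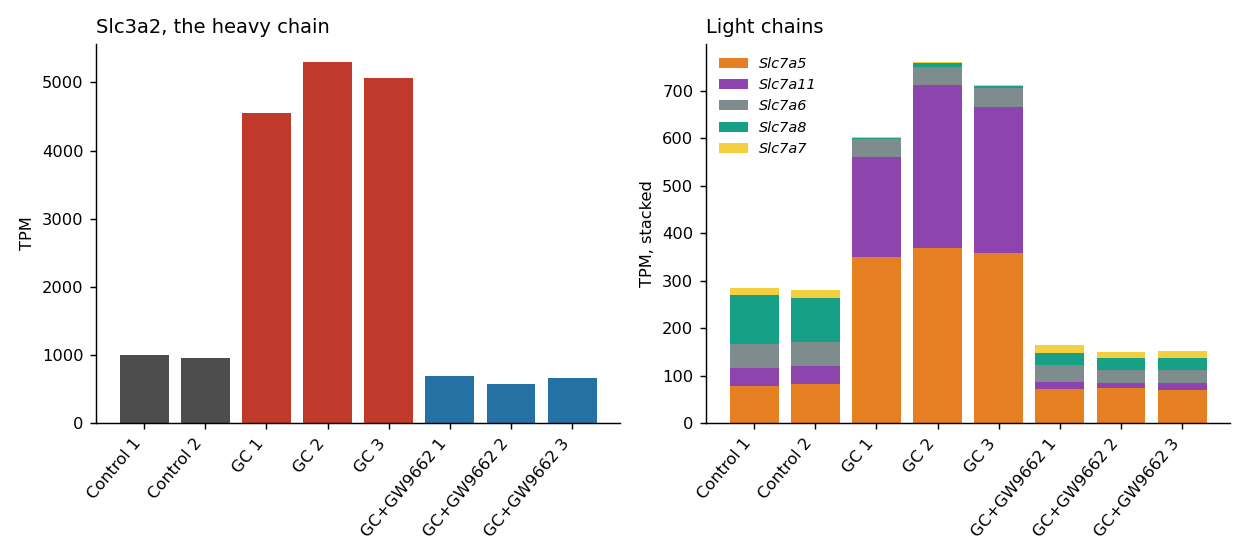
TPM of Slc3a2 (left, bars coloured by group) and of the 5 light chains stacked (right) in each of the 8 libraries, with 1 bar per library, numbered by replicate. Slc7a8 is a visible band in Control and GC+GW9662 and at most 0.988% of the stack in GC, where Slc7a5 and Slc7a11 fill most of it.

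Cationic carriers bring in arginine and lysine without a heavy chain; in GC against Control Slc7a1 was higher and Slc7a2 lower. Slc7a1 (CAT1), the widely expressed arginine carrier, measured 36.4 and 36.01 TPM in the libraries labelled Control, 61.9, 119.7 and 103 in those labelled GC and 10.9, 9.47 and 9.84 in those labelled GC+GW9662. The groups did not overlap, and GC replicate 1 lay between Control and the other GC libraries. The differences were 1.31 ± 0.25 for GC against Control (adjusted p = 0.0028), -3.07 ± 0.23 for GC+GW9662 against GC (1.7e-05) and -1.75 ± 0.25 for GC+GW9662 against Control (0.0019; not called with the length trend removed). Slc7a2 (CAT2), the inducible arginine carrier of macrophages, measured 21.7 and 22.8, then 2.56, 5.91 and 4.33, then 6.94, 5.06 and 5.15 TPM in the same order of groups. Both DEX-labelled groups lay below Control and overlapped each other. It was lower in GC against Control (-2.19 ± 0.29, adjusted p = 3.5e-04) and in GC+GW9662 against Control (-1.80 ± 0.29, 0.0023; not called with the length trend removed), and GC+GW9662 against GC gave 0.39 ± 0.26 (0.21). That last difference was called as higher with median-ratio scaling, quantile normalization and the length trend removed. Slc7a1 made up 61.2% to 62.7% of the sum of Slc7a1 and Slc7a2 in the Control libraries, 95.3% to 96.0% in the GC libraries and 61.0% to 65.6% in the GC+GW9662 libraries. Slc7a4, a relative with no settled transport activity, ranged from 0.277 to 1.60 TPM over all libraries and passed the filter only through the group where it was highest, GC+GW9662, so its difference from GC (0.64) is a description.

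In the Slc1a family, 3 of 5 kept members were lower in GC against Control, where 39.1% of all genes were, so this count is not read as a family result. Slc1a5 (ASCT2), the main glutamine carrier of proliferating cells, measured 193 and 185 TPM in the Control libraries, 37.3, 43.4 and 39.6 in the GC libraries and 119, 98.4 and 115 in the GC+GW9662 libraries. The 3 groups were apart, with GC lowest: the differences were -2.21 ± 0.12 for GC against Control (adjusted p = 4.2e-06), 1.44 ± 0.11 for GC+GW9662 against GC (2.1e-05) and -0.77 ± 0.12 for GC+GW9662 against Control (0.0024). Median-ratio scaling and removal of the length trend ended the last call. Slc1a4 (ASCT1), which exchanges alanine, serine and cysteine, measured 50.2 and 44.3 TPM in the Control libraries, 32.6, 43.9 and 41.3 in the GC libraries and 17.9, 18.02 and 21.96 in the GC+GW9662 libraries. All GC+GW9662 libraries were below every other library, by -0.98 ± 0.15 against GC (adjusted p = 8.9e-04) and -1.25 ± 0.17 against Control (0.0017), and both calls held under every alternative run. GC against Control did not pass (-0.27 ± 0.17, adjusted p = 0.22).

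The glutamate carriers of the same family are best known from the nervous system. Slc1a6 (EAAT4), which is typical of cerebellar Purkinje cells, measured 66.3 and 63.3 TPM in the Control libraries, 3.95, 3.21 and 4.17 in the GC libraries and 63.2, 53.7 and 58.4 in the GC+GW9662 libraries. Its GC libraries were far below the others, at -3.79 ± 0.15 against Control (adjusted p = 8.2e-07), and GC+GW9662 was 3.64 ± 0.13 above GC (5.4e-07). Its GC+GW9662 libraries all lay below both Control libraries, with a difference that did not pass (-0.15 ± 0.15, adjusted p = 0.4) and was 0.53 and called with median-ratio scaling. Slc1a3 (EAAT1), the glutamate carrier of glia, measured 9.15 and 8.47 TPM in Control, 0.0677, 0.130 and 0.0363 in GC, where it rested on 3, 7 and 2 reads, and 3.08, 1.71 and 2.63 in GC+GW9662. It was lower in GC against Control (-3.19 ± 0.22, adjusted p = 1.1e-05), higher in GC+GW9662 against GC (1.67 ± 0.19, 1.9e-04) and lower in GC+GW9662 against Control (-1.52 ± 0.22, 0.0019), the last not called with the length trend removed. Slc1a1 (EAAT3), which also imports cysteine, ranged from 0.0476 to 2.91 TPM and passed the filter only through GC, the group where it was highest. Its values of 1.11 for GC against Control and -1.25 for GC+GW9662 against GC are therefore descriptions.

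Among the sodium-coupled neutral carriers, Slc38a2 was the only kept member that was higher in the libraries labelled GC. This gene, SNAT2, is the classical carrier induced by amino acid shortage. It measured 116 and 115 TPM in the Control libraries, 306, 562 and 501 in the GC libraries and 47.8, 39.97 and 41.5 in the GC+GW9662 libraries, with no overlap between groups and with GC replicate 1 lowest in GC. The differences were 1.93 ± 0.24 for GC against Control (adjusted p = 2.5e-04), -3.33 ± 0.21 for GC+GW9662 against GC (7.9e-06) and -1.40 ± 0.24 for GC+GW9662 against Control (0.0026). With the length trend removed the last was 0.02. Slc38a1 (SNAT1), which carries glutamine, measured 15.7 and 16.3 TPM in the Control libraries, 7.39, 12.9 and 10.9 in the GC libraries and 5.23, 4.27 and 4.96 in the GC+GW9662 libraries. The GC libraries lay between the other groups without overlap, and GC against Control did not pass (-0.61 ± 0.23, adjusted p = 0.056). That value was 0.65 and called with the length trend removed, and called as lower with a pseudocount of 5 (-0.47), with a constant prior and without GC replicate 2 (-0.77). Slc38a1 was lower in GC+GW9662 than in GC (-0.94 ± 0.21, adjusted p = 0.0053) and than in Control (-1.55 ± 0.23, 0.0021; 0.20 with the length trend removed).

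Slc38a6 measured 12.4 and 12.4 TPM in the Control libraries, 1.35, 1.14 and 1.19 in the GC libraries and 6.56, 4.57 and 7.39 in the GC+GW9662 libraries, with GC lowest and no overlap. It was lower in GC against Control (-2.59 ± 0.22, adjusted p = 3.3e-05) and higher in GC+GW9662 against GC (1.67 ± 0.20, 2.0e-04). GC+GW9662 was below Control (-0.92 ± 0.22, adjusted p = 0.0073), a call that ended without either Control library and under the 3 settings named above. Slc38a10 measured 110.3 and 102 TPM in the Control libraries, 19.6, 50.5 and 39.8 in the GC libraries and 26.5, 22.9 and 23.4 in the GC+GW9662 libraries. Both DEX-labelled groups were below Control, by -1.61 (SE 0.34, adjusted p = 0.0041) and -2.08 (SE 0.34, adjusted p = 0.0023). They overlapped each other through GC replicate 1. GC+GW9662 against GC did not pass (-0.48 ± 0.30, adjusted p = 0.20), but was called as lower without that library. Slc38a7 and Slc38a9 act on lysosomes. Slc38a7, which releases glutamine and asparagine from lysosomes, measured 57.8 and 54.6, then 41.4, 47.4 and 48.9, then 41.3, 41.7 and 44.3 TPM in the same order. Its sole call, in GC+GW9662 against Control (-0.40 ± 0.12, adjusted p = 0.02), ended without Control replicate 1, Control replicate 2 or GC+GW9662 replicate 1, and its value lay above 0 under the 3 settings named above. Slc38a9, the arginine sensor of the lysosome, measured 7.04 and 6.59, then 5.31, 3.98 and 4.73, then 6.83, 5.54 and 5.92 TPM and passed in no comparison; with the length trend removed, GC+GW9662 against Control was 1.59 and called.

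The 3 kept proton-coupled carriers were all lower in GC against Control, where 39.1% of all genes were, but 2 of these calls were weak. Slc36a2 (PAT2), a known surface marker of brown and beige fat cells, measured 3.58 and 3.22 TPM in Control and 2.75, 2.60 and 4.84 in GC+GW9662 and was listed at 0 in all 3 GC libraries. Against the 0.0358 TPM that 3 reads over the GC group would give, Control was at least 95.0-fold higher and GC+GW9662 at least 94.9-fold higher. The limma adjusted p was 1.5e-04 for GC against Control and 9.7e-05 for GC+GW9662 against GC. Slc36a1 (PAT1), which moves small amino acids out of lysosomes, measured 23.1 and 22.4 TPM in the Control libraries, 11.8, 18.2 and 16.7 in the GC libraries and 10.5, 12.03 and 11.1 in the GC+GW9662 libraries. Its difference in GC against Control (-0.54 ± 0.20, adjusted p = 0.045) was 0.08 with quantile normalization and 0.10 with the length trend removed, and the call ended without Control replicate 1 or 2, GC replicate 3 or any GC+GW9662 library. Slc36a4 (PAT4) measured 21.3 and 21.5 TPM in the Control libraries, 7.92, 15.1 and 11.1 in the GC libraries and 9.32, 6.02 and 7.42 in the GC+GW9662 libraries. Both DEX-labelled groups were below Control (-0.90 ± 0.27, adjusted p = 0.022 for GC and -1.40 ± 0.27, 0.0036 for GC+GW9662). The first call ended without Control replicate 1 or 2 or GC replicate 3 and under 4 scalings, and the second with the length trend removed.

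Both kept members of the Slc43a family were lower in GC against Control, where 39.1% of all genes were. Slc43a2 (LAT4), which lets leucine and other large neutral amino acids leave the cell without exchange, measured 375 and 358 TPM in the Control libraries, 29.9, 49.9 and 44.1 in the GC libraries and 113, 102 and 116 in the GC+GW9662 libraries. The groups were fully apart, with Control highest and GC lowest. The differences were -3.15 ± 0.20 for GC against Control (adjusted p = 7.8e-06), 1.43 ± 0.18 for GC+GW9662 against GC (2.8e-04) and -1.72 ± 0.20 for GC+GW9662 against Control (0.0012; not called with the length trend removed). Slc43a3, which is known to carry purine bases rather than amino acids, measured 28.5 and 30.1 TPM in the Control libraries, 9.01, 12.6 and 9.84 in the GC libraries and 16.6, 10.7 and 12.4 in the GC+GW9662 libraries. It was lower than Control in GC (-1.41 ± 0.22, adjusted p = 8.2e-04) and in GC+GW9662 (-1.11 ± 0.22, 0.0037). The second call ended with quantile normalization and with the length trend removed. The DEX-labelled groups overlapped, and GC+GW9662 against GC did not pass (0.30 ± 0.19, adjusted p = 0.20). That difference was called as higher with median-ratio scaling, quantile normalization and the length trend removed.

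The taurine and glycine carriers parted in GC against Control. Slc6a6, the taurine carrier, measured 375 and 371 TPM in the Control libraries, 78.5, 183 and 156 in the GC libraries and 91.4, 69.01 and 91.4 in the GC+GW9662 libraries. Both DEX-labelled groups were below Control, by -1.51 ± 0.32 (adjusted p = 0.0048) and -2.15 ± 0.32 (0.0021), calls that held under every alternative run. GC replicate 1 fell among the GC+GW9662 libraries, and GC+GW9662 against GC did not pass (-0.65 ± 0.29, adjusted p = 0.083), but passed without that library. Slc6a9 (GlyT1), the glycine carrier, measured 19.7 and 20.02 TPM in the Control libraries, 35.1, 46.4 and 39.9 in the GC libraries and 9.13, 9.23 and 10.2 in the GC+GW9662 libraries, with the groups fully apart. It was 0.98 ± 0.16 for GC against Control (adjusted p = 9.7e-04), -1.97 ± 0.14 for GC+GW9662 against GC (1.3e-05) and -0.99 ± 0.16 for GC+GW9662 against Control (0.0022), the last not called with quantile normalization or the length trend removed. Slc7a6os, which is annotated beside Slc7a6 without overlap, measured 16.8 and 15.4 TPM in the Control libraries, 22.5, 25.7 and 24.98 in the GC libraries and 16.3, 12.96 and 15.3 in the GC+GW9662 libraries. Its rise in GC against Control (0.57 ± 0.15, adjusted p = 0.014) ended without Control replicate 1 or 2, and GC+GW9662 was below GC (-0.68 ± 0.14, 0.0032).

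**Figure D3:**
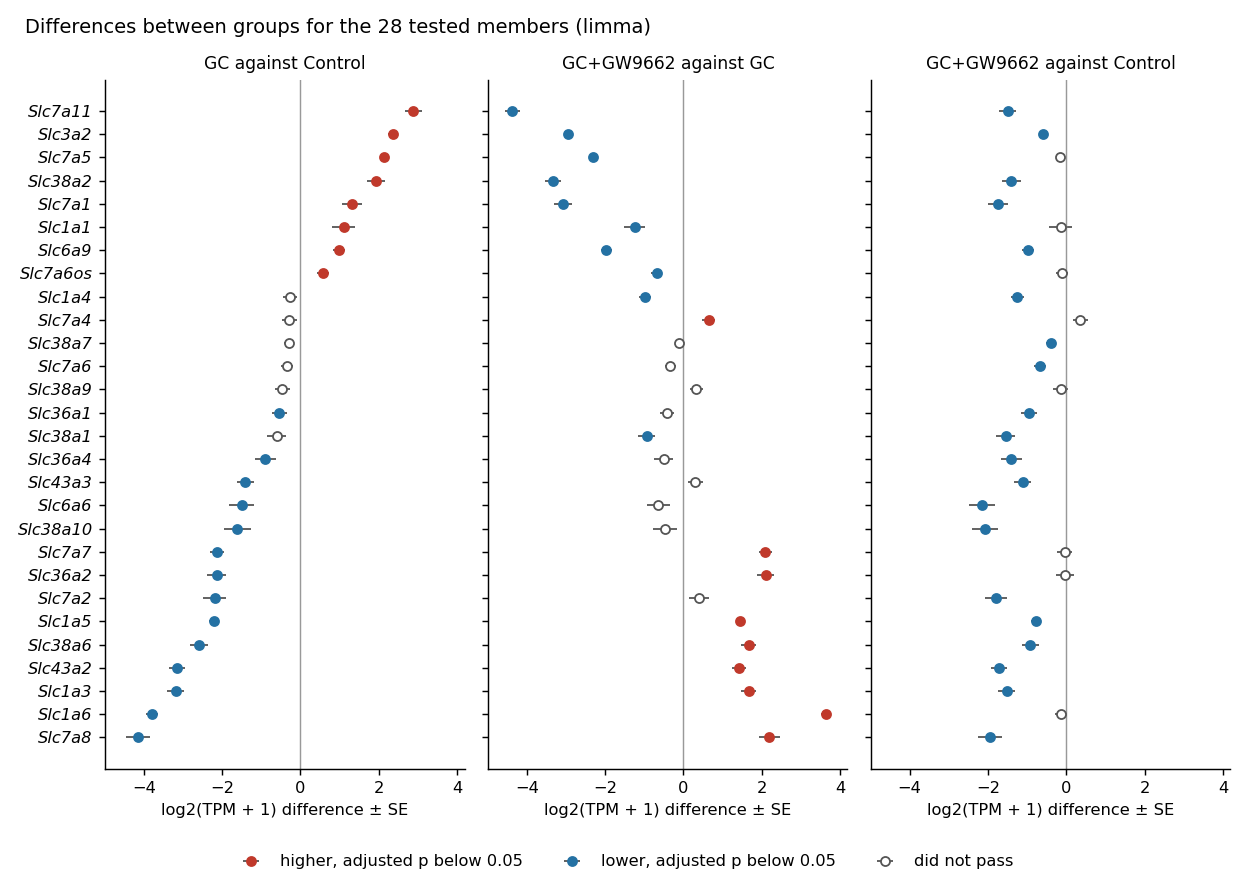
Differences in log2(TPM + 1) with their SE from limma for the 28 tested members, 1 panel per comparison and genes ordered by GC against Control; filled points passed an adjusted p below 0.05, red higher and blue lower. In GC+GW9662 against Control 20 points are filled, all below 0, a split that changed to 6 higher and 4 lower with the length trend removed. Among those 6 are Slc1a1 and Slc7a4, which passed the filter only through the group where each was highest. With the length trend removed, 3540 of 14974 genes were higher and 3409 lower.

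Calls differed in how they held up. Leaving out Slc1a1 and Slc7a4, in GC against Control 6 of 7 higher calls (Slc3a2, Slc7a5, Slc7a11, Slc7a1, Slc38a2 and Slc6a9) and 12 of the 14 lower calls passed in the same direction under every alternative that kept the gene. All 8 higher and 9 lower calls of GC+GW9662 against GC did. Of the 20 lower calls in GC+GW9662 against Control, 4 did, namely Slc1a4, Slc6a6, Slc7a8 and Slc38a10. Removing the length trend raised the GC against Control values of the longer risen genes, to 4.03 for Slc7a11, 2.81 for Slc38a2 and 2.37 for Slc7a1.

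**Figure D4:**
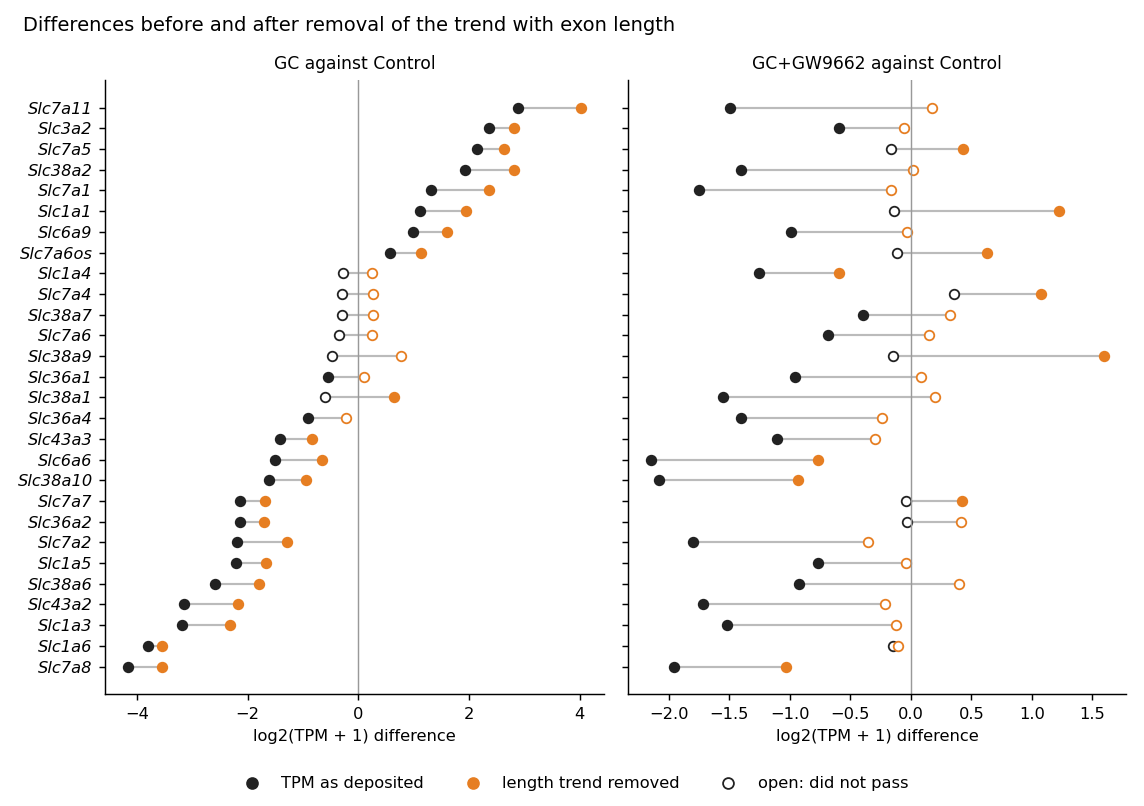
Differences in log2(TPM + 1) for the 28 members as deposited (black) and after removal of the trend of each library with exon length (orange), for GC against Control and GC+GW9662 against Control; open points did not pass. On the right most points move toward or past 0, and 4 members stay lower and called, while on the left Slc36a1 and Slc36a4 lose their calls and Slc38a1 gains one.

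The remaining 19 genes taken by the rule were below the filter. Slc7a9, Slc7a10, Slc7a12, Slc7a15, Slc36a3, Slc38a5 and Slc38a11 were listed at 0 in every library. Slc7a10 is a known surface marker of white fat cells; 3 reads over a group would correspond to 0.0412 to 0.0647 TPM at its M21 exon length. The other 12 ranged up to 0.896 TPM for Slc43a1, a leucine carrier, and 0.865 TPM for Slc7a3, an arginine carrier, just outside the filter, where Slc7a4 with a highest value of 1.60 TPM was just inside. They also included Slc1a2, Slc1a7, Slc3a1, Slc7a13, Slc7a14, Slc38a3, Slc38a4, Slc38a8, Slc36a1os and Slc36a3os.

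Amino acid carriers of other families were counted in the same fits. Of 17 tested, 6 were higher and 9 lower in GC against Control (16.2% and 39.1% of all genes), with a median of -0.64 beside -0.38 for all genes. Counts were 4 higher and 7 lower in GC+GW9662 against GC, near the shares of all genes (28.3% and 33.5%), and 1 and 10 in GC+GW9662 against Control (14.1% and 48.6%). The members of each list with the largest difference in GC against Control were chosen with these values known. Slc15a3, a lysosomal histidine and peptide carrier, averaged 11.4 TPM in Control (n = 2), 95.7 in the GC libraries (n = 3) and 7.80 in the GC+GW9662 libraries (n = 3), with 2.94 ± 0.21 for GC against Control (adjusted p = 1.5e-05). Pqlc2, which exports cationic amino acids from lysosomes, averaged 23.1, 101.3 and 23.9 TPM (2.08 ± 0.13, adjusted p = 8.6e-06). Sfxn3, a mitochondrial serine carrier, averaged 93.7, 17.8 and 70.7 TPM (-2.34 ± 0.11, adjusted p = 1.6e-06).

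Atf4 and the synthesis genes known as its targets were counted next. Atf4 averaged 323 ± 1.31 (SD, n = 2) TPM in Control, 2042 ± 82.6 (n = 3) in the GC libraries and 322 ± 10.2 (n = 3) with GW9662, a difference of 2.66 ± 0.09 for GC against Control (adjusted p = 4.5e-07) and -2.66 ± 0.08 for GC+GW9662 against GC (2.5e-07). Of the 13 genes of the list, Atf4 included, 4 were higher and 6 lower in GC against Control (16.2% and 39.1% of all genes), 5 and 7 in GC+GW9662 against GC (28.3% and 33.5%), and 1 and 7 in GC+GW9662 against Control (14.1% and 48.6%). Psph, the last enzyme of serine synthesis, averaged 27.4, 68.6 and 44.5 TPM (1.27 ± 0.19 for GC against Control, adjusted p = 6.9e-04). Aldh18a1, the first enzyme of proline synthesis from glutamate, averaged 58.9, 21.6 and 14.2 TPM (-1.42 ± 0.18, adjusted p = 3.4e-04).

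Genes listed under glutathione synthesis and turnover, Txnrd1 among them, were higher in the libraries labelled GC for 7 of 9 tested and lower for 1, where 16.2% and 39.1% of all genes were, with a median of 1.07 beside -0.38 for all genes. Between GC+GW9662 and GC, 2 were higher with the inhibitor and 6 lower (28.3% and 33.5% of all genes; median -1.82), and in GC+GW9662 against Control 1 was higher and 6 lower (14.1% and 48.6%; median -0.67). Chac1, which breaks glutathione down, averaged 29.0, 524 and 30.7 TPM in the 3 groups, with 4.13 ± 0.11 for GC against Control (adjusted p = 2.3e-07). Gclc, the catalytic subunit of the enzyme that limits glutathione synthesis, averaged 179, 1563 and 41.9 TPM (3.04 ± 0.36, adjusted p = 2.2e-04). Gss, glutathione synthetase, averaged 40.8, 205 and 29.3 TPM (2.30 ± 0.12, adjusted p = 3.5e-06).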

How the data were processed

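RNA was sequenced from 8 Smart-Seq2 libraries, which carry no strand or molecular identifiers. The deposited table gives TPM per gene; per the submitters' processing notes it was made with featureCounts, HISAT2 2.1.0 and fastp, with the genome build not given in the sources used here. Of 54232 rows, 97.4% had the start and end of a GENCODE M21 gene. Date-like symbols (27) were restored by Ensembl ID, and 96 symbols on several identical rows were used once. Depth was estimated from the steps between TPM values (whole reads within 0.02), covers counting error only and may be too low. Replicates are named by title number.

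Genes with at least 1 TPM in 2 libraries (14985) were put on the log2(TPM + 1) scale and fitted in R 4.3.3 by limma 3.58.1 (tables read with data.table, version 1.17.8), with group means over all 8 libraries, a trend prior, two-sided tests and Benjamini-Hochberg adjustment over all genes at 0.05. The script was tested on simulated data. Python 3.11.15, numpy 2.4.6, pandas 2.3.3 and matplotlib 3.10.9 did the rest. Alternatives were a pseudocount of 0.1 or 5, a filter of 5 TPM or none, quantile normalization, median-ratio scaling, totals that left out mitochondrial genes and the 20 highest, removal of the trend with exon length, a constant prior, robust empirical Bayes, the compared groups alone, replicate blocks and each library left out. Members with a group mean of at least 5 TPM are given in full. Members and lists were chosen with earlier results of these data known. From each list of other genes up to 3 with the largest difference in GC against Control and a group mean of at least 5 TPM were named. Sesn3 was also named, as the other sestrin tested. Marker lists for osteoblasts, osteoclasts, lymphocytes and endothelial cells were also summed: Control, GC and GC+GW9662 gave 178 to 187, 4.61 to 9.33 and 32.2 to 42.4 TPM for osteoblasts, 97.5 to 99.4, 56.3 to 58.5 and 62.6 to 72.5 for osteoclasts, 3.03 to 3.38, 3.27 to 6.71 and 6.97 to 10.5 for lymphocytes, and 9.46 to 10.2, 3.56 to 4.00 and 7.70 to 9.21 for endothelial cells.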

Additional observations from a re-analysis of the deposited data

How the results depend on the processing

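The number of alternatives run was 21. Over single omitted libraries, GC against Control gave 6 to 8 members higher and 12 to 15 lower, GC+GW9662 against GC 8 to 10 and 10 to 14, and GC+GW9662 against Control 0 and 18 to 20. Members higher in GC+GW9662 against Control were 5 with median-ratio scaling, 3 with quantile normalization and 6 with the length trend removed, and members lower were 4 with the last. Those higher counts hold Slc7a4 with median-ratio scaling, and Slc7a4 and Slc1a1 with the length trend removed. Of all 14974 genes in that last setting, 3540 were higher and 3409 lower. Of single-member values, 1648 kept direction and call, 49 lost a call, 26 gained one and 26 changed sign with a call before or after; the cause was not tested. With the length trend removed, GC+GW9662 against Control became 1.23 for Slc1a1, 0.081 for Slc36a1, 0.20 for Slc38a1, 0.015 for Slc38a2, 0.40 for Slc38a6, 0.33 for Slc38a7, 1.59 for Slc38a9, 0.18 for Slc7a11, 0.43 for Slc7a5, 0.15 for Slc7a6, 0.63 for Slc7a6os and 0.42 for Slc7a7, and GC against Control 0.10 for Slc36a1 and 0.65 for Slc38a1. With median-ratio scaling, GC+GW9662 against Control became 0.53 for Slc1a6, 0.28 for Slc38a7, 0.10 for Slc3a2, 0.52 for Slc7a5, 0.53 for Slc7a6os and 0.60 for Slc7a7. With quantile normalization it became 0.026 for Slc38a6, 0.076 for Slc38a7, 0.80 for Slc38a9, 0.81 for Slc7a6os and 0.88 for Slc7a7, and GC against Control 0.078 for Slc36a1. Where 1 Control library was left out, the lone one was assumed to vary like the other groups. Members of low level rest on few reads, 2 to 7 for Slc1a3 in GC.

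Same-numbered libraries deviated from their group means with correlations of -0.16 to 0.08, so the numbers did not pair them. A replicate block by title number gave 7 higher and 12 lower members in GC against Control, 9 and 10 in GC+GW9662 against GC, and 0 and 19 in GC+GW9662 against Control; by bracketed number it gave 8 and 13, 9 and 10, and 0 and 19. Both blocks ended the calls of Slc36a4 in GC against Control and Slc38a7 in GC+GW9662 against Control, and the title block those of Slc36a1 and Slc7a6os in GC against Control.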

Other observations

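Genes that sense amino acids upstream of mTORC1 and the first enzymes that use imported amino acids were counted in the same fits, and the genes named were chosen with their values known. Of 30 sensing genes tested, 7 were higher and 12 lower in GC against Control, 7 and 14 in GC+GW9662 against GC, and 8 and 17 in GC+GW9662 against Control, with medians of -0.36, -0.33 and -0.61 beside -0.38, -0.11 and -0.49 for all genes. The shares of all genes were 16.2% higher and 39.1% lower, 28.3% and 33.5%, and 14.1% and 48.6%, so that several of these counts are near the background. The sestrins, which bind leucine and restrain mTORC1, parted. Sesn2 averaged 52.2, 242 and 22.4 TPM in the libraries labelled Control, GC and GC+GW9662 (2.14 ± 0.25 for GC against Control, limma adjusted p = 1.8e-04). Sesn1 averaged 39.4, 4.36 and 20.2 TPM (-2.92 ± 0.24, adjusted p = 2.7e-05), and Sesn3 17.1, 6.88 and 4.01 TPM (-1.23 ± 0.24, 0.0027). Lamtor4, a subunit of the Ragulator complex on lysosomes, averaged 221, 64.8 and 451 TPM (-1.79 ± 0.24, adjusted p = 4.4e-04).

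Of 15 first enzymes of glutamine, arginine, branched-chain amino acid, tryptophan and taurine metabolism, 4 were higher and 10 lower in GC against Control, 5 and 5 in GC+GW9662 against GC, and 1 and 8 in GC+GW9662 against Control, against the same shares of all genes; 5 and 5 is close to them. On the arginine branch, Arg2, the mitochondrial arginase, averaged 1.53, 63.5 and 3.01 TPM in that order of groups (4.66 ± 0.23 for GC against Control, adjusted p = 2.5e-06), and Odc1, which turns ornithine into putrescine, averaged 93.0, 1211 and 105.6 TPM (3.68 ± 0.13, adjusted p = 6.6e-07). Cdo1, which commits cysteine to taurine synthesis, averaged 84.4, 2.34 and 95.1 TPM (-4.68 ± 0.16, adjusted p = 4.6e-07). The sum of adipocyte markers other than Cebpa, 36.7 to 52.6 TPM in GC and 1110 TPM or more elsewhere, moves with Cdo1. Single markers in that sum moved in opposite directions between GC+GW9662 and Control. The part of these markers in the Cdo1 result was not tested.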
